A study of Danio rerio with 114 samples.

Results

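Stage II oocytes (O2) of wild-type zebrafish were compared with stage I oocytes (O1), in 3 polyA+ RNA libraries of O2 and 3 of O1. These 6 libraries, of 114 in the series, were taken by genotype, stage and library type from the sample labels. The rRNA-depleted (total RNA) libraries of the same wild-type stages, again 3 of O2 and 3 of O1, served as a check. Wild type was the TLAB strain, a cross of AB and TL fish. Ovaries came from 3 females that had been purged to enrich early stages, and oocytes were sorted by hand by size and opacity. O2 oocytes were still translucent but bigger, and O1 oocytes were the smallest and most translucent. The series also holds libraries of later wild-type stages (O3, O4) and of ski7-/- females. These females lack the full-length cofactor Ski7 of the RNA exosome and are other animals. Both kinds of library entered the main fits, where they helped set which genes were tested, the scaling and the shared spread. Their levels are given only where stated. The methods describe sorting by eye and name no step that strips the follicle wall, so each library can hold RNA of the oocyte and of the cells around it.

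Zebrafish oocytes grow within a follicle. In stage I they store maternal mRNAs, ribosomes and mitochondria, much of these gathered in the Balbiani body, and a layer of follicle cells forms around each oocyte. In stage II cortical alveoli appear, the vitelline envelope is laid down and the follicle wall gains granulosa cells, a basement membrane and theca, with gap junctions to the oocyte. Yolk uptake follows in stage III.

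Reads on genes per polyA library ranged from 5288259 to 9916041 at O2 and from 5510647 to 10008474 at O1. In rRNA-depleted libraries they ranged from 6305611 to 21970290 at O2 and from 17774818 to 46600444 at O1, so these O1 libraries were the deeper ones. Levels are CPM, reads of a gene scaled to a fixed total of reads on genes, after TMM scaling, a factor per library that sets the bulk of genes equal between libraries. Summed levels of a list are on the same scale, and shares of reads in percent are without the TMM factor. CPM is a share of the RNA and not an amount per oocyte, and fewer cells of a type cannot be told apart from less RNA per cell. Oocyte markers were abundant, as the label has it: the 19 zona pellucida genes of the egg coat summed to 31999 CPM at O2 and 38140 CPM at O1 in polyA libraries.

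In polyA+ RNA no gene passed the test between the stages. Of 9621 genes tested with edgeR's quasi-likelihood test, 0 were higher and 0 lower at O2 at an adjusted p under 0.05 (0.00% and 0.00% of those tested), and 247 had an unadjusted p under 0.05, 197 of them higher (2.05%) and 50 lower (0.520%) at O2. Of all genes tested 49.8% had a log2 fold change above 0 and 50.2% one below 0. The smallest adjusted p was 0.173. DESeq2's Wald test on the same counts called 10 genes higher at O2 and 0 lower. The differences were small for most genes, with 94.0% of log2 fold changes within 0.5 of 0 and an SD across genes of 0.34. Only 153 genes had a log2 fold change over 1 and 16 one under -1. With the replicate number as a block, since libraries of the same number deviated together, again 0 genes passed in either direction and 445 had an unadjusted p under 0.05. With the block in a fit of the 6 wild-type libraries alone, chosen after seeing the data, 78 genes were higher and 109 lower. The largest differences lay on the higher side. Genes whose 3 O2 libraries all lay above the 3 O1 libraries made up 6.32% of those tested, against 5.40% for all below. The level filter, which also counted later stages and ski7-/- libraries, let in genes low at both stages and higher later. The gene quo, for example, had polyA means of 0.476 CPM at O1, 4.92 CPM at O2 and 44.5 CPM at O3. How far the filter set the balance of large higher and lower values was not tested.

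Among genes with a gene symbol that is no clone name, those with the smallest p in polyA+ RNA were pdia2, a protein disulfide isomerase, and col28a2b, a collagen of the type XXVIII family. For pdia2 the O2 libraries had 13, 14.7 and 26.1 CPM, and the O1 libraries 4.06, 4.72 and 3.73 CPM, a log2 fold change of 2.11 ± 0.41 (SE) with an adjusted p of 0.173. For col28a2b the O2 libraries had 17.7, 31.9 and 57.7 CPM, and the O1 libraries 8.54, 9.59 and 11.5 CPM. Neither gene's groups overlapped, and in each the third O2 library was the highest. Both were among the 10 genes of DESeq2's Wald test, with DDC, GJA1, NOTCH3, gja11, quo, FOXP4, si:ch73-217n20.1 and MFAP4 (ENSDARG00000111491). Without replicate 1 of O2, col28a2b was the only gene that passed the edgeR test, with an adjusted p of 0.0374. At the following stage their level was higher again, with means of 162 CPM for pdia2 and 168 CPM for col28a2b at O3.

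**Figure D1:**
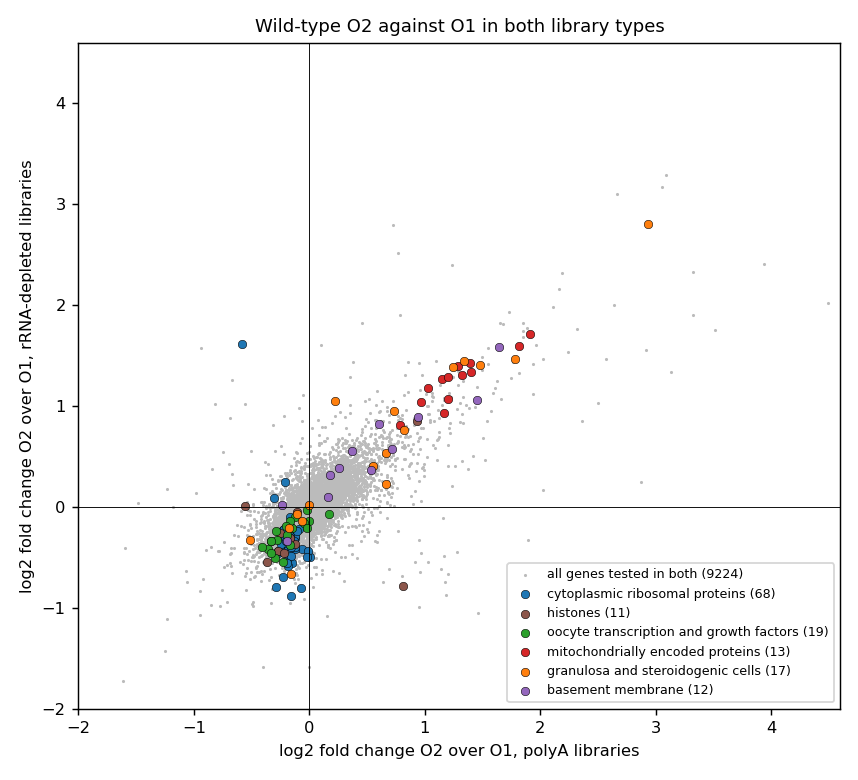
Each point is a gene tested in both library types, with its log2 fold change of O2 over O1 in polyA libraries on the x axis and in rRNA-depleted libraries on the y axis; 9224 genes are drawn less 7 outside the axes, and coloured points are gene lists. Mitochondrially encoded genes, basement membrane and part of the granulosa genes lie to the upper right, and ribosomal protein, histone and oocyte factor genes lie mostly below 0.

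In rRNA-depleted RNA genes rose and fell in similar numbers in the main fit. Of 10158 genes tested, 147 rose (1.45%) and 140 fell (1.38%) at O2. At an unadjusted p under 0.05 the shares were 8.81% higher and 7.27% lower, and 49.3% of genes had a positive and 50.6% a negative log2 fold change. The same-numbered libraries again deviated together, with correlations from 0.803 to 0.891 for the 3 pairs, and with the block 955 genes rose (9.40%) and 789 fell (7.77%). Without the block the median log2 fold change was 0.78 for the 147 that rose and -0.52 for the 140 that fell. For the 955 and 789 genes called with it the medians were 0.43 and -0.33. More than 1 on the log2 scale were 55 of the 147 and 6 of the 140. Here too the level filter let in genes low at both stages and higher later. OLFML2A, for example, had means of 0.326 CPM at O1, 1.73 CPM at O2 and 12 CPM at O3. The sizes of rises and falls are therefore not compared further. Scaling by library size alone, which raises the median of all genes by 0.10, gave 475 higher and 71 lower. With every library thinned to the reads of the smallest, 20 were higher and 49 lower, or 115 and 245 with the block. The balance of rises and falls thus varied with the setting. The counts of the main fit also depended on single libraries. They were 2 and 2 without replicate 3 of O2, 31 and 36 without replicate 2 of O2, 8 and 10 without replicate 1 of O1, and 4 and 6 without replicate 3 of O1. A fit of the 6 libraries alone called 0 and 0, with 1537 genes at an unadjusted p under 0.05, and 1447 and 1491 with the block. The 4 genes called without replicate 3 of O2 were FAT3, an atypical cadherin, and EEA1, an early endosome tether, which were higher, and eef1a1l1, a translation elongation factor, and si:dkey-108k21.18, which were lower.

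The differences in both library types went together across genes. Over the 9224 genes tested in both, Pearson's r of the log2 fold changes was 0.74, a description across genes, which are not independent. The sources used here do not say whether both library types were made from the same RNA, so the rRNA-depleted libraries may not be separate samples of oocytes. Of the 147 genes that rose in rRNA-depleted RNA, 125 were tested in polyA+ RNA, 121 of them with a positive log2 fold change and 68 with all 3 O2 libraries above all 3 O1 libraries (6.32% of all genes). Of the 140 that fell, 95 were tested, 85 with a negative value and 30 with all O2 libraries below O1 (5.40% of all genes). The median in polyA+ RNA was 0.51 for the first set and -0.18 for the other. The test of the difference between library types, in 9079 genes, called 0 genes with 199 at an unadjusted p under 0.05. DESeq2's Wald test called RDH10, a retinol dehydrogenase, and the block called a copy annotated Metazoa_SRP, the signal recognition particle RNA, each with the higher log2 fold change in polyA+ RNA. RDH10 had 947, 945 and 988 CPM at O2 and 975, 1022 and 985 CPM at O1 in polyA libraries. In rRNA-depleted libraries it had 323, 344 and 362 CPM at O2 and 490, 471 and 537 CPM at O1, a fall of 0.54 ± 0.10 on the log2 scale (SE, edgeR adjusted p = 0.0103). The small polyA difference of RDH10, -0.05, turned to 0.06 when libraries were scaled by size alone.

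Of the 19 lists chosen by function, mitochondrially encoded mRNAs had the largest median difference between the stages in both library types. The 13 genes encode core subunits of respiratory complexes I, III and IV and of ATP synthase. All 13 were tested, and all 13 had a positive log2 fold change in each library type, with medians of 1.21 in polyA+ RNA and 1.29 in rRNA-depleted RNA beside -0.00085 and -0.0032 for all genes tested. In rRNA-depleted RNA 6 rose without the block (1.45% of all genes did) and 13 with it (9.40% of all genes). In polyA+ RNA none passed, and 9 had an unadjusted p under 0.05. The 6 were MT-ND3, MT-ND4, MT-ND5, MT-ND6, MT-CO2 and MT-CO3. The sum over the 13 was 3389, 4175 and 4637 CPM in the O2 polyA libraries, against 2232, 2353 and 1270 CPM in the O1 polyA libraries. In rRNA-depleted libraries it was 2095, 2193 and 2392 CPM at O2, against 1269, 1063 and 759 CPM at O1. No sum overlapped between the stages, a 2.08-fold higher mean in polyA+ and 2.16-fold in rRNA-depleted RNA, with an exact two-sided permutation p of 0.1 each, the smallest that 3 against 3 libraries allow. The third O1 library was the lowest of its group in both library types.

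MT-CO2, a subunit of cytochrome c oxidase, had 390, 479 and 402 CPM in the O2 rRNA-depleted libraries and 219, 211 and 130 CPM in those of O1. Its log2 fold change was 1.18 ± 0.31 (SE), with an adjusted p of 0.0495 and 0.0039 with the block. In polyA libraries MT-CO2 had 821, 1079 and 1069 CPM at O2 and 517, 626 and 318 CPM at O1. MT-ND4, of complex I, had 153, 169 and 210 CPM at O2 and 83.8, 72.9 and 58.1 CPM at O1 in rRNA-depleted libraries, a log2 fold change of 1.31 ± 0.29. In polyA libraries MT-ND4 had 176, 245 and 269 CPM at O2 and 102, 114 and 60.8 CPM at O1. Neither gene's groups overlapped in either library type. MT-ND6, the single protein gene on the other strand of the mitochondrial genome, had the largest value of the 13 in rRNA-depleted RNA, with 16.4, 19.6 and 32.4 CPM at O2 and 8.93, 6.38 and 5.90 CPM at O1. MT-CO1 had the smallest value of the 13, with a log2 fold change of 0.82 in rRNA-depleted and 0.78 in polyA+ RNA. The number of the 13 called in rRNA-depleted RNA was 0 without replicate 3 of O2 or replicate 1 or 3 of O1, 2 without replicate 2 of O2 and 4 without replicate 2 of O1. With the block it was 0 without replicate 3 and 12 or 13 without replicate 2 or 1.

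**Figure D2:**
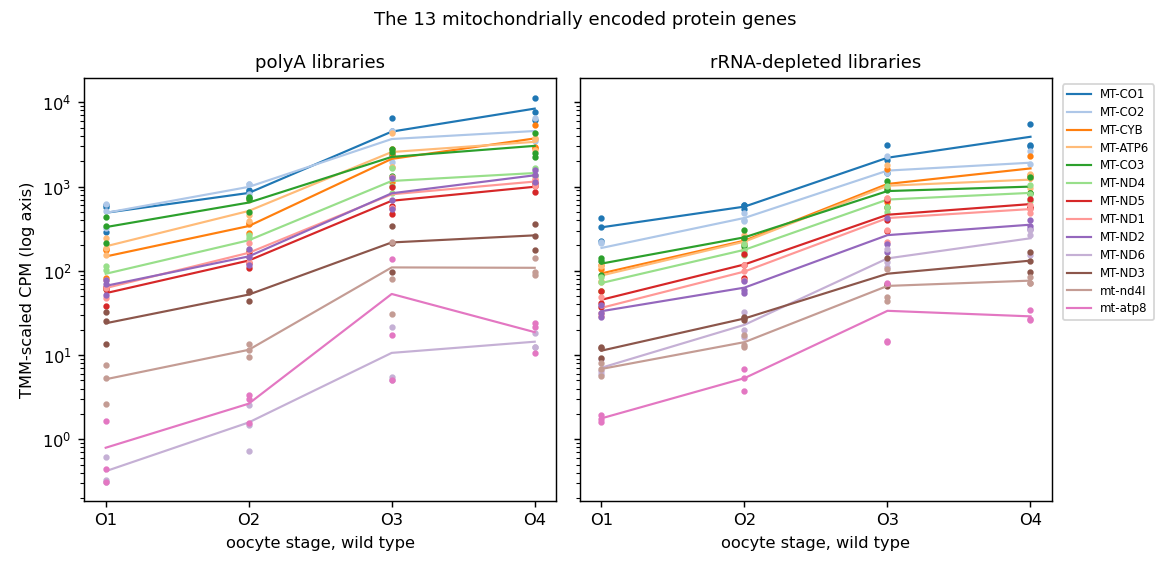
The y axis gives CPM of the 13 mitochondrially encoded protein genes on a log axis, the x axis the wild-type stage from O1 to O4; points are libraries, 3 per stage, lines join the means, and each gene has the same colour in both panels. Means of all 13 are higher at O2 than at O1 in both panels, and MT-CO1 in polyA libraries goes on to 4485 CPM at O3 and 8411 CPM at O4.

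Later stages had higher levels still. In polyA+ RNA the 13 genes summed to 0.179% of reads on genes at O1, 0.403% at O2, 1.95% at O3 and 2.90% at O4. In rRNA-depleted RNA the shares were 0.0952% at O1, 0.222% at O2, 0.930% at O3 and 1.29% at O4. Nuclear-encoded subunits of oxidative phosphorylation, complex II included, had no rises. The median of 65 of them tested in rRNA-depleted RNA was -0.21. Of the 65, 0 rose and 5 fell (1.38% of all genes fell), and 0 rose and 28 fell with the block (7.77% of all genes fell). The 5 included cox7b, a subunit of cytochrome c oxidase, with 55.4, 54.2 and 55.5 CPM at O2 and 73.8, 77.8 and 99.0 CPM at O1. In polyA+ RNA 69 were tested, none passed and their median was -0.07, which turned to 0.03 with scaling by library size alone.

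Genes of granulosa and steroid-making cells were low in level, and part of them rose. Of 44 in the list 19 were tested in rRNA-depleted RNA, of which 3 rose without the block (1.45% of all genes did), 6 rose with it (9.40% of all genes) and 0 fell. Of the 19, 12 had a positive and 7 a negative log2 fold change, with a lowest value of -0.66 and a median of 0.41. In polyA+ RNA 18 were tested, 11 positive and 7 negative, with a lowest value of -1.10 and a median of 0.61. There 6 genes had all O2 libraries above all O1 libraries (6.32% of all genes) and 2 all below (5.40%). None passed in polyA+ RNA, and 5 had an unadjusted p under 0.05, all higher at O2. The 3 that rose in rRNA-depleted RNA without the block were hsd17b1, FOXL2 (ENSDARG00000068417) and NR5A1 (ENSDARG00000103176). All 3 passed the level filter only with the help of libraries other than those of O2 and O1. Their rRNA-depleted means at O3 were 52.3, 17.5 and 47.7 CPM, in the same order. How far this way into the test set the share of calls in the list was not tested. hsd17b1 makes estradiol from estrone, FOXL2 is a transcription factor of granulosa cells, and NR5A1 is a nuclear receptor that switches on steroid synthesis genes. For hsd17b1 the O2 rRNA-depleted libraries had 7.19, 17.6 and 18.5 CPM and those of O1 had 4.51, 6.68 and 4.91 CPM, a log2 fold change of 1.45 ± 0.35 (SE, adjusted p = 0.0334). In polyA libraries hsd17b1 had 7.49, 11.3 and 17.7 CPM at O2 and 5.08, 5.19 and 4.28 CPM at O1. The groups did not overlap in either library type, and the first O2 library was the lowest of its group. FOXL2 had 2.35, 5.81 and 6.41 CPM at O2 and 1.71, 2.68 and 1.30 CPM at O1 in rRNA-depleted libraries, where the groups overlapped.

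The aromatase CYP19A1, which makes estradiol from testosterone, had 1.56, 1.1 and 5.77 CPM at O2 and 0.538, 0.358 and 0.357 CPM at O1 in rRNA-depleted RNA. Its adjusted p was 0.0699, and 0.0060 with the block. In polyA libraries CYP19A1 had 7, 26 and 61 reads at O2 and 4, 3 and 4 reads at O1, so that its O1 level rests on few reads. The third O2 library stood highest in both. CYP17A1, which acts earlier in the pathway and makes androgens, was far more abundant and did not rise. It had 128, 317 and 282 CPM at O2 and 145, 355 and 343 CPM at O1 in rRNA-depleted libraries. There the first library of each stage lay well below the other two, and within each replicate number O2 was below O1. The edgeR adjusted p of CYP17A1 was 0.86, and 0.11 with the block. The gonadal growth factor gsdf had 7.82, 11.6 and 8.95 CPM at O2 and 6.27, 5.96 and 4.47 CPM at O1, with an adjusted p of 0.31 and 0.039 with the block. The summed level of the list was 400.3 ± 92.7 CPM at O2 and 412 ± 79.6 CPM at O1 in polyA libraries (SD, n = 3 each, exact permutation p = 0.9). In rRNA-depleted libraries it was 583.7 ± 156.8 CPM at O2 and 611.2 ± 164.8 CPM at O1 (exact permutation p = 0.7). CYP17A1 alone had means of 242 CPM at O2 and 281 CPM at O1 there. The sums therefore say little about the members of a few CPM. Within replicate numbers the O2 sum was higher in 1 and lower in 2 in polyA libraries, and lower in all 3 in rRNA-depleted libraries. The list had 0 calls without replicate 2 or 3 of O2 or replicate 1 or 3 of O1, and 0 with the block without replicate 3.

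Genes of the basement membrane, a list chosen after the values were seen, had mostly positive values and 2 calls without the block. As in the granulosa list, members low at both stages could be tested through later stages. Of 29 members 15 were tested in rRNA-depleted RNA, with 14 positive values and a median of 0.51. Of these 2 rose (1.45% of all genes did), or 5 with the block (9.40% of all genes). In polyA+ RNA 12 of 14 tested were positive, none passed and the median was 0.42. The sum over the list was 355, 410.4 and 505 CPM at O2 and 335, 343 and 356 CPM at O1 in rRNA-depleted libraries, where the first O2 library lay just below the third O1 library (exact permutation p = 0.2). Without the TMM factor the sums did not overlap (exact permutation p = 0.1). LAMA1, the alpha 1 chain of laminin, had 7.82, 11.5 and 19.7 CPM at O2 and 4.44, 4.65 and 4.24 CPM at O1, a log2 fold change of 1.59 ± 0.27 (SE, adjusted p = 0.0087). In polyA libraries LAMA1 had 4.14, 7.06 and 8.04 CPM at O2 and 1.83, 1.89 and 2.42 CPM at O1. The other member that rose was col4a3, a type IV collagen chain, at 17.2, 19.2 and 19.4 CPM at O2 and 13.3, 12.1 and 12 CPM at O1. LAMB1, the laminin beta 1 chain, rose only with the block (adjusted p = 0.075 without and 0.015 with it). Its CPM values were 7.82, 11.6 and 18.2 at O2 and 6.59, 6.68 and 5.41 at O1. The levels of LAMB1 continued to 85.6 CPM at O3 and 117 CPM at O4. The list had 0 calls without replicate 3 of O2 or of O1 and 1 without replicate 2 of O2 or replicate 1 or 2 of O1.

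The connexin genes GJA1 and gja11 rose as well, 2 of 6 gap junction genes tested (1.45% of all genes rose). They were again singled out after their values were seen. The gene gja11 had rRNA-depleted means of 2.38 CPM at O1, 7.1 CPM at O2 and 50 CPM at O3. In rRNA-depleted RNA both gja11 and GJA1 passed the level filter only with the help of other libraries. The mean of GJA1 at O3 was 48.1 CPM there. GJA1 (ENSDARG00000041799) had 8.91, 13.2 and 15 CPM at O2 and 4.75, 5.19 and 4.07 CPM at O1 in rRNA-depleted libraries (log2 fold change 1.42 ± 0.31, adjusted p = 0.0232). In polyA libraries it had 10.1, 9.41 and 16.4 CPM at O2 and 3.25, 3.77 and 2.42 CPM at O1. All O2 libraries of GJA1 lay above all O1 libraries in both types. The abundant oocyte connexin gene of the list, gjc4b, had a mean of 419 CPM at O2 and 549 CPM at O1 in rRNA-depleted RNA, and its adjusted p was 0.18. With the block gjc4b fell (adjusted p = 0.0080), so members of the family lay on both sides. The gap junction list had 0 calls without replicate 3 of O2 or replicate 1 or 3 of O1, and 1 without replicate 2 of O2.

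Other genes with large rises in rRNA-depleted RNA included a fibrinogen-domain matrix gene, receptors and enzymes. MFAP4 (ENSDARG00000111491) had the largest log2 fold change of the genes named here, 3.17, with 38, 29.7 and 117 CPM at O2 and 9.26, 10.9 and 0.759 CPM at O1, an adjusted p of 0.0495. The third O1 library was the lowest by far, and the mean of MFAP4 was 1436 CPM at O3. DDC, the decarboxylase that makes dopamine and serotonin, had 9.23, 6.75 and 18.7 CPM at O2 and 2.97, 2.27 and 1.92 CPM at O1. NOTCH3, a receptor of the Notch pathway, had 23.6, 26.4 and 55.4 CPM at O2 and 16.6, 15.5 and 15.2 CPM at O1 (adjusted p = 0.016). In polyA libraries NOTCH3 had 14.2, 20.2 and 29.3 CPM at O2 and 6.5, 7.08 and 7.25 CPM at O1. FOXP4, a forkhead transcription factor, had 17, 26.7 and 26.4 CPM at O2 and 9.56, 13.2 and 9.60 CPM at O1 in rRNA-depleted RNA. Further genes that rose more than 1 on the log2 scale were quo, MYO7A, an unconventional myosin, OLFML2A, an olfactomedin-like matrix protein, NAV2, PLCB1, a phospholipase C, KLHL41 and IMPDH1, an enzyme of guanine nucleotide synthesis. The CPM of these 7 genes at O2 ranged from 1.09 to 19.3, and at O1 from 0.223 to 8.32. OLFML2A, NAV2, PLCB1 and KLHL41 were below 10 CPM in every library of both stages and passed the level filter through others. DDC, quo and MYO7A were above 10 CPM only in the third O2 library and also passed through others. In polyA+ RNA OLFML2A was not tested. NAV2 overlapped there, with 0.394, 1.27 and 1.15 CPM at O2 and 1.22, 0.315 and 0.329 CPM at O1. The polyA groups of quo, MYO7A, PLCB1, KLHL41 and IMPDH1 did not overlap, and none of these passed. PIK3CA and PIK3CD, catalytic subunits of PI3-kinase, rose by log2 values of 0.68 and 0.88.

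**Figure D3:**
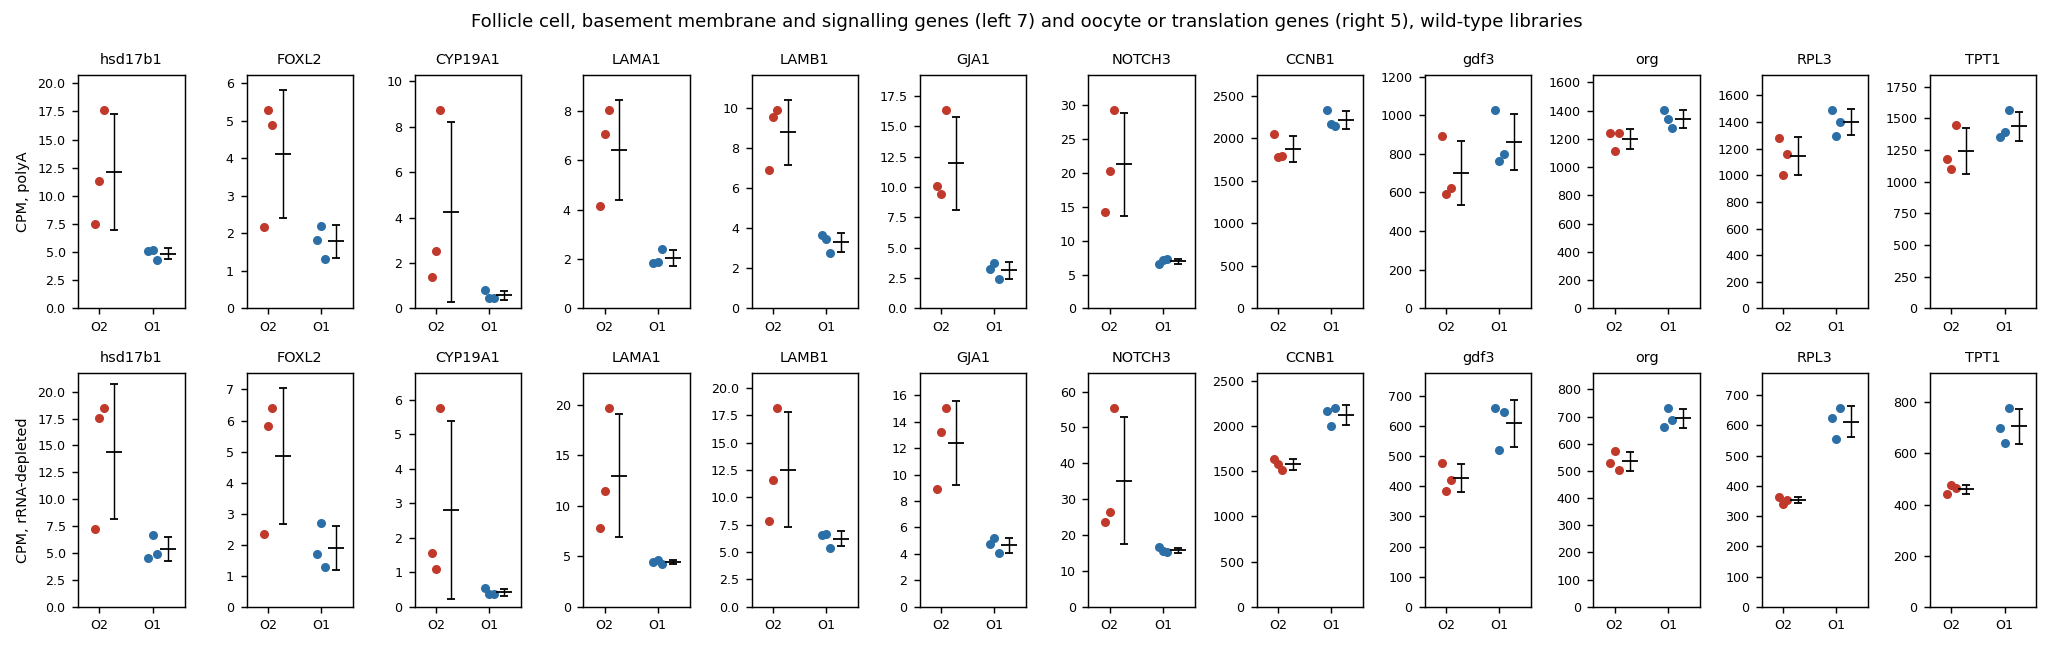
Each panel gives the CPM of one gene on a linear axis from 0, with polyA libraries in the top row and rRNA-depleted libraries in the bottom row; points are the 3 libraries of O2 (left) and of O1 (right), and the bar beside them is the mean ± SD. LAMA1 has 7.82, 11.5 and 19.7 CPM at O2 above 4.24 to 4.65 CPM at O1 in rRNA-depleted libraries, and RPL3 has 341 to 363 CPM at O2 below 554 to 657 CPM at O1.

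Markers of theca, stroma, endothelium and blood were low, and none was called without the block. Theca, stroma and smooth muscle genes, 28 in the list, summed to between 70.2 and 101 CPM at O2 and between 52.6 and 134 CPM at O1 in polyA libraries, with 0 of 13 tested called. Endothelial, blood and leukocyte genes, 25 in the list, summed to between 53.0 and 67.2 CPM at O2 and between 50.8 and 102 CPM at O1. Of these 0 of 6 tested were called in either library type without the block, and 1 rose with it in rRNA-depleted RNA (9.40% of all genes). The erythroid enzyme alas2 had 0 reads in all 6 libraries, and the hemoglobin gene hbaa1 had 4 to 13 reads per polyA library. Between the stages both summed levels overlapped (exact permutation p = 1 and 0.9). Oogonial and early germ cell genes had 0 calls of 9 tested in rRNA-depleted RNA and of 8 in polyA+ RNA. Of 7 follicular epithelium genes tested, the only call was cldnd, a claudin, which fell in rRNA-depleted RNA (1.38% of all genes did). It was itself abundant, with 1236, 1306 and 1118 CPM at O2 and 1544, 1650 and 1518 CPM at O1. The part of cell mixture in the rises above was not tested.

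Receptors for hormones and growth factors had mostly positive values without calls. In rRNA-depleted RNA 21 of 23 tested had a positive log2 fold change, with a median of 0.18. Of these 0 rose without the block (1.45% of all genes did) and 3 with it (9.40% of all genes). In polyA+ RNA 16 of 23 had a positive value, with a median of 0.16. The sum over the 47 members was 1520 ± 49.0 CPM at O2 and 1398 ± 19.0 CPM at O1 in rRNA-depleted libraries (SD, n = 3 each), without overlap and with an exact permutation p of 0.1. In polyA libraries the sums overlapped, at 811 ± 45.8 CPM at O2 and 760 ± 34.6 CPM at O1 (exact permutation p = 0.3). Within replicate numbers the polyA sum was higher at O2 in 2 and lower in 1. The FSH receptor, which drives follicle growth, had 0 to 4 reads in each polyA library and was not tested.

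Oocyte transcription factors and growth factors had small negative values, and part of them fell. Of 19 tested in rRNA-depleted RNA all 19 had negative values, 2 fell without the block (1.38% of all genes did) and 10 with it (7.77% of all genes) and the median was -0.23. In polyA+ RNA 18 of 19 were negative, none passed and the median was -0.20. With scaling by library size alone the medians were -0.12 and -0.09, so the direction of the list held. The 2 that fell were gdf3, a Nodal-related TGF-beta ligand that is loaded into the egg, and the maternal gene org. For gdf3 the O2 rRNA-depleted libraries had 478, 383 and 421 CPM and those of O1 had 660, 520 and 646 CPM, a fall of 0.51 ± 0.12 on the log2 scale (SE, adjusted p = 0.0345). In polyA libraries gdf3 had 894, 592 and 623 CPM at O2 and 1029, 762 and 798 CPM at O1. The groups overlapped in polyA+ RNA but not in rRNA-depleted RNA, and within each replicate number O2 was below O1. For org the O2 libraries had 528, 573 and 504 CPM and the O1 libraries 661, 732 and 688 CPM in rRNA-depleted RNA.

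The oocyte linker histone h1m had 2067, 1650 and 1772 CPM at O2 and 2510, 2049 and 2390 CPM at O1 in rRNA-depleted RNA, with an adjusted p of 0.082 and 0.0059 with the block. In polyA libraries h1m had 3262, 2459 and 2993 CPM at O2 and 4033, 3255 and 3684 CPM at O1. The dorsal determinant hwa, which stabilises beta-catenin in the embryo, had 49.1, 43.3 and 45.3 CPM at O2 and 65.9, 63.6 and 59.7 CPM at O1, with no overlap. Its adjusted p was 0.064, and 0.0038 with the block. YBX1, an RNA-binding protein that packs stored mRNA, had 479, 433 and 515 CPM at O2 and 598, 538 and 604 CPM at O1 in polyA libraries. Its unadjusted p of 0.0079 in the edgeR test was the smallest of the list there.

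Cell cycle mRNAs that are stored for meiotic maturation had mostly negative values, and part of them fell. Among 33 tested in rRNA-depleted RNA 28 had negative values, with a median of -0.15. With scaling by library size alone 20 were negative, with a median of -0.04. In the main fit 0 rose and 2 fell (1.38% of all genes fell), or 8 with the block (7.77% of all genes). The 2 that fell without the block were cyclins. CCNB1, the partner of Cdk1 in maturation-promoting factor, had 1634, 1580 and 1512 CPM at O2 and 2160, 1996 and 2200 CPM at O1, a fall of 0.43 ± 0.08 on the log2 scale (SE, adjusted p = 0.0130). In polyA libraries CCNB1 had 2049, 1778 and 1793 CPM at O2 and 2337, 2171 and 2138 CPM at O1. No library overlapped between the stages in either type, though the polyA value missed the test. CCNA1, a germline cyclin, had 1391, 1336 and 1384 CPM at O2 and 1593, 1568 and 1757 CPM at O1. CCNB2 missed the test without the block (adjusted p = 0.056, and 0.014 with it).

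Germ plasm and piRNA genes had mostly negative values and 1 call without the block. Of 28 tested in rRNA-depleted RNA 24 had negative values, with a median of -0.17, or -0.06 with scaling by library size alone. In polyA+ RNA 21 of 28 were negative, none passed and the median was -0.15. In rRNA-depleted RNA 0 rose and 1 fell (1.38% of all genes fell), or 6 with the block (7.77% of all genes). The gene that fell, ca15b, a carbonic anhydrase whose mRNA sits in germ plasm, had 1312, 1183 and 1299 CPM at O2 and 1807, 1503 and 1901 CPM at O1. The Balbiani body organiser buc had 1946, 1619 and 1742 CPM at O2 and 2034, 1829 and 2104 CPM at O1, with overlap (adjusted p = 0.26). PIWIL1, which binds piRNAs, had 201, 151 and 170 CPM at O2 and 227, 178 and 214 CPM at O1, also with overlap.

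Egg coat genes had small negative values. Of 19 zona pellucida genes 16 were tested, and none passed in either library type without the block. With it 2 fell in rRNA-depleted RNA (7.77% of all genes did). Values were negative for 16 of 16 in rRNA-depleted and 15 of 16 in polyA+ RNA, with medians of -0.27 and -0.24. The list's share of reads in polyA libraries was 3.49% at O1, 3.16% at O2, 2.65% at O3 and 1.93% at O4. The abundant coat gene zp3a.1 had 6225, 4973 and 5682 CPM at O2 and 7310, 6428 and 6521 CPM at O1 in polyA libraries, without overlap. Meiotic genes had 0 calls of 11 tested in polyA+ RNA and of 12 in rRNA-depleted RNA. There 1 rose and 2 fell with the block (9.40% and 7.77% of all genes).

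LARP6 and ELAVL2, which code for RNA-binding proteins and were chosen after their values were seen, fell. LARP6 had 871, 716 and 793 CPM at O2 and 1119, 1010 and 1122 CPM at O1 in rRNA-depleted libraries, and ELAVL2, of the Hu family, had 56.3, 53.4 and 53.7 CPM at O2 and 80.2, 64.9 and 84.2 CPM at O1. Falls on the log2 scale were by 0.45 and 0.49, with adjusted p values of 0.048 and 0.047. In polyA libraries LARP6 had 1190, 999 and 1027 CPM at O2 and 1564, 1305 and 1493 CPM at O1, again without overlap.

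Cytoplasmic ribosomal protein mRNAs fell in rRNA-depleted RNA. Of 68 tested 0 rose and 19 fell (1.38% of all genes fell), or 57 with the block (7.77% of all genes), with negative values for 65 and a median of -0.33, or -0.23 with scaling by library size alone. The sum over the 78 members was 13822, 12403 and 12252 CPM at O2 and 17003, 15506 and 16778 CPM at O1, without overlap (exact permutation p = 0.1, the smallest possible). In polyA+ RNA 70 of 73 tested were negative with a median of -0.18, but none passed, and the sums overlapped at 40019 ± 5332 CPM at O2 and 45575 ± 2753 CPM at O1 (SD, n = 3 each, exact permutation p = 0.3). Within each of the 3 replicate numbers the O2 sum was the lower one. RPL3, of the large subunit, had 363, 341 and 354 CPM at O2 and 625, 554 and 657 CPM at O1 in rRNA-depleted RNA, a fall of 0.80 ± 0.13 on the log2 scale (SE, adjusted p = 0.0087). In polyA libraries RPL3 had 1279, 998 and 1159 CPM at O2 and 1493, 1297 and 1401 CPM at O1. RPL8, RPL19, RPL35 and rpl7a also fell in rRNA-depleted RNA, by 0.42 to 0.88. Without replicate 3 of O2 or replicate 3 of O1 none of the list was called, without replicate 1 of O1 1 was, and without replicate 2 of O2 3 were. Translation factors went the same way. Of 25 tested in rRNA-depleted RNA 0 rose and 4 fell (1.38% of all genes fell). With the block 2 rose and 10 fell (9.40% and 7.77% of all genes). The largest falls were of TPT1, a growth-linked protein whose mRNA is regulated like those of ribosomal proteins, and of eef1a1l1. TPT1 had 439, 476 and 463 CPM at O2 and 699, 640 and 778 CPM at O1. eef1a1l1 had 1402, 1254 and 1304 CPM at O2 and 1920, 1769 and 1929 CPM at O1 (adjusted p = 0.0028). In polyA libraries eef1a1l1 had 2720, 2581 and 2755 CPM at O2 and 3247, 2991 and 3278 CPM at O1, without overlap.

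**Figure D4:**
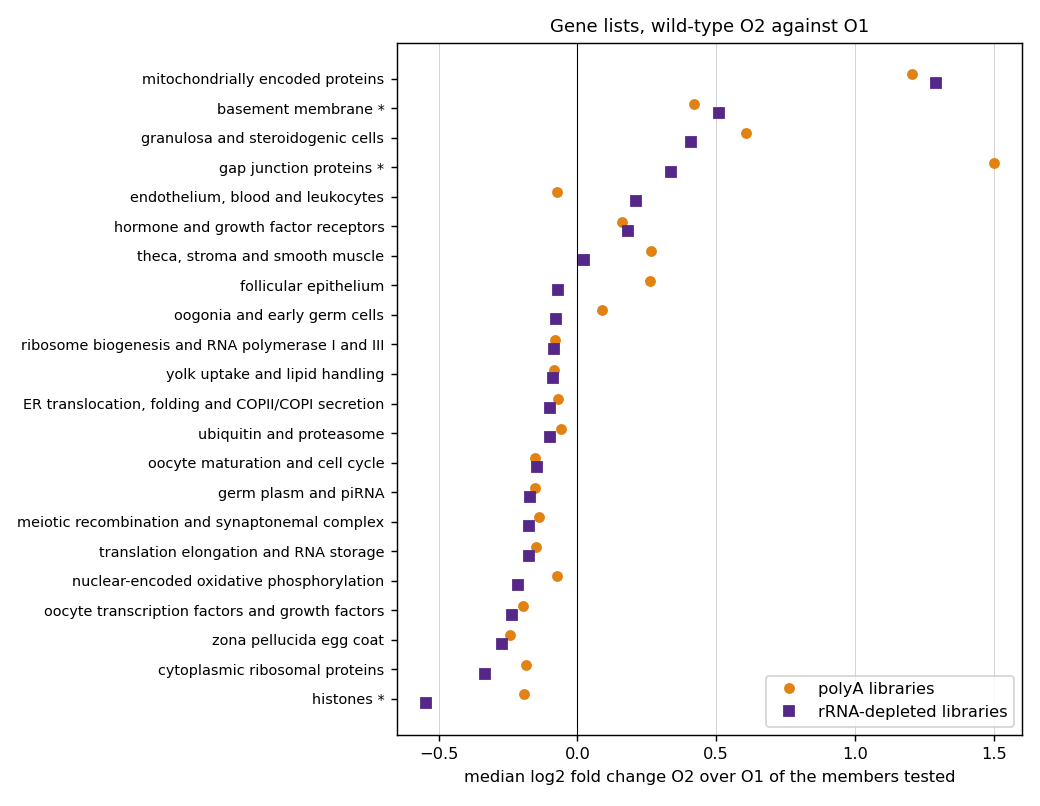
The x axis gives the median log2 fold change of O2 over O1 over the tested members of each gene list, in polyA libraries (circles) and rRNA-depleted libraries (squares); lists with an asterisk were chosen after the values were seen. The mitochondrially encoded list lies at 1.21 and 1.29, and histones lie at -0.19 in polyA and -0.55 in rRNA-depleted libraries.

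Histone mRNAs, a list chosen after the values were seen, fell in rRNA-depleted RNA. Of 27 tested 0 rose and 12 fell (1.38% of all genes fell), or 23 with the block (7.77% of all genes). The median was -0.55. Replication-dependent histone mRNAs lack a polyA tail, and only 12 of the 30 members passed the level filter in polyA libraries, none of which was called. The H2A gene hist1h2a9 had 101, 106 and 93.5 CPM at O2 and 213, 153 and 194 CPM at O1, a fall of 0.90 ± 0.17 on the log2 scale. The H4 gene hist1h4l had 174, 150 and 164 CPM at O2 and 295, 212 and 302 CPM at O1. The H2B gene h2bc1 and the H2A gene hist1h2a4 fell by 0.94 each. These 4 genes had 1 to 128 reads per polyA library and did not pass the filter of the polyA fit. In the fit of both library types together their polyA log2 fold changes were positive, from 0.46 for hist1h2a9 to 1.5 for hist1h4l, and the test of the difference between library types called none of the 4, with an unadjusted p of 0.015 for hist1h4l. Many histone genes are near-identical copies, and reads that fit several copies were not counted, so the level of a single copy is uncertain. Of the 140 genes that fell 45 carried clone-based names and 4 had none, against 8 and 4 of the 147 that rose. The histone calls numbered 0 without replicate 3 of O2 or replicate 1 or 3 of O1 and 3 without replicate 2 of O2, and 10 with the block without replicate 3.

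Secretion, ribosome assembly, protein turnover and yolk uptake genes had few calls without the block. In rRNA-depleted RNA 1 of 67 genes of the secretory pathway fell (1.38% of all genes did) and 0 rose, with a median of -0.10, and with the block 3 rose and 10 fell. For ribosome biogenesis (49 tested), the proteasome (37) and yolk uptake and lipid handling (31) there were no calls without the block, with medians from -0.10 to -0.09. With it 3 rose and 4 fell in ribosome biogenesis, 0 and 7 in the proteasome, and 2 and 2 in yolk uptake. Of all genes tested 9.40% rose and 7.77% fell with the block. The falls in the secretory and proteasome lists were a larger share than that. The medians of these lists, all near 0, turned positive when libraries were scaled by size alone. The sums of the secretory list were 20499 ± 963 CPM at O2 and 21751 ± 753 CPM at O1 in polyA libraries (SD, n = 3 each, exact permutation p = 0.3). Without the TMM factor the means were 20267 CPM at O2 and 19927 CPM at O1, the other way round (exact permutation p = 0.5).

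The length of the gene went with the direction of the difference. Gene spans, introns included, came by symbol from RefSeq annotation of another assembly (GRCz12tu), and 89.1% of genes tested in polyA+ RNA and 87.6% of those tested in rRNA-depleted RNA had one. In the shortest eighth, with a median span of 3618 bp, the median log2 fold change was -0.17 in rRNA-depleted RNA. In the longest eighth, with a median of 135220 bp, it was 0.12. In polyA+ RNA, where eighths were formed among the genes tested there, the shortest (median 3558 bp) had -0.10 and the longest (119755 bp) 0.09. Genes that rose with the block had a median span of 39479 bp, with a span for 82.7% of them, and those that fell 6672 bp, with a span for 85.4%, beside 19144 bp for all genes tested. Without the block fewer than 80% of the called genes had a span, and no value is given. What else goes with span was not tested.

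**Figure D5:**
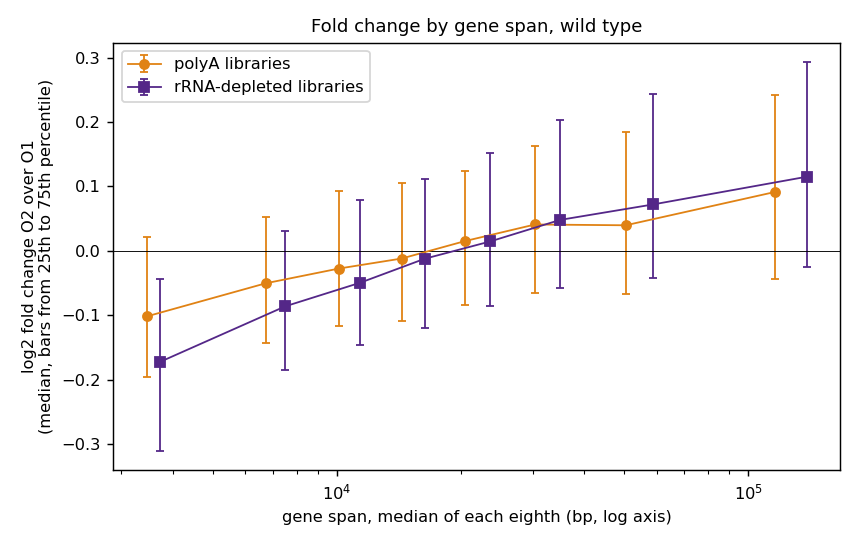
Genes with a span were put into 8 equal groups by span; the x axis gives each group's median span in bp on a log axis and the y axis its median log2 fold change of O2 over O1, with bars from the 25th to the 75th percentile over genes. The median goes from -0.17 in the shortest to 0.12 in the longest group in rRNA-depleted libraries, and from -0.10 to 0.09 in polyA libraries, while the bars of neighbouring groups overlap.

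The ski7-/- females gave the same comparison in other animals. Both comparisons came from the same fits, with a shared spread, scaling and level filter. The calls in the genotypes are therefore not independent of each other. There 405 genes rose (3.99%) and 233 fell (2.29%) at O2 in rRNA-depleted RNA, and 19 rose (0.197%) and 1 fell (0.0104%) in polyA+ RNA. Of the 147 genes that rose in wild type, 122 also rose in ski7-/- females (83.0% of the 147 and 30.1% of the 405) and 145 had a positive value. Of the 140 that fell, 97 also fell (69.3% of the 140 and 41.6% of the 233) and 140 had a negative value. pdia2 had a log2 fold change of 2.41 in ski7-/- polyA+ RNA (adjusted p = 0.029), col28a2b 2.09 and LAMA1 2.16. MT-CO1 had 2.06 there, against 0.78 in wild type. Its ski7-/- O2 polyA libraries had 2824, 1225 and 1125 CPM, the first well above the others. In rRNA-depleted RNA MT-CO1 had 1.31 in ski7-/- females and 0.82 in wild type. Its difference between genotypes was not called in either library type. The test of the difference between genotypes in polyA+ RNA called 0 of 9621 genes, with 150 at an unadjusted p under 0.05, and 0 with DESeq2's Wald test or the block.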

How the data were processed

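Gene counts were used as deposited by the authors, whole numbers of uniquely mapped reads per gene, made with HISAT2 2.1.0 and HTSeq 0.9.1 on GRCz11 after adapter trimming; RNA was polyA-selected or rRNA-depleted and libraries were stranded. Rows that name no gene (12.4 to 29.7% of reads) were left out. Symbols were matched for 28965 of 31466 genes. In edgeR 4.0.16 each library type was fitted apart, over 24 oogenesis libraries with a mean per genotype and stage, on genes with at least 10 CPM in 3 libraries, with TMM and the quasi-likelihood test (two-sided, Benjamini-Hochberg over all genes tested, 0.05). Summed lists, on the TMM scale and also over library size alone (chosen after seeing the data), were compared by an exact permutation test. That test does not use the replicate numbers as pairs. The code was tested on simulated data.

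The labels give replicate numbers, and the sources used here do not say whether a number is a female. Same-numbered O2 and O1 libraries deviated together (r of 0.764, 0.800 and 0.667 in polyA and 0.831, 0.891 and 0.803 in rRNA-depleted libraries), so the numbers were taken as pairs and the fit with the block is given beside the other. P-values measure the spread between these libraries. Alternatives were DESeq2 1.42.0, other scalings and filters, thinning, 6 libraries alone and leaving out libraries.

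The genes and lists were chosen with earlier results of these data known. The rule named the 12 largest log2 fold changes each way and the 6 largest gains and losses in CPM among non-overlapping calls, plus up to 4 members per list by p. It was written for the polyA fit, which had no calls, so those parts were applied to the rRNA-depleted fit after its values were seen. Not every gene it named is printed, and many printed genes lie outside it, picked after their values were seen: FOXP4, NOTCH3, IMPDH1, PIK3CA, PIK3CD, LARP6, ELAVL2, RDH10, FAT3, EEA1, MT-ND6, MT-CO1, cox7b, NR5A1, gsdf, CYP17A1, org, CCNA1, RPL8, TPT1, alas2, hbaa1, si:ch73-217n20.1, si:dkey-108k21.18, further called members of the lists, and those of the 3 lists on histones, basement membrane and gap junctions.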

Additional observations from a re-analysis of the deposited data

How the results depend on the processing

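In polyA libraries 0 genes higher and 0 lower became 10 and 0 with DESeq2's Wald test, and leaving out a library gave 0 to 1 higher. In rRNA-depleted libraries 147 higher and 140 lower became 475 and 71 with library size only, 71 and 98 at 1 CPM, 42 and 75 with no filter, 382 and 269 with DESeq2's Wald test, 20 and 49 after thinning, 0 and 0 with 6 libraries only, and 2 to 217 higher and 2 to 162 lower without a library. The replicate block gave 955 higher and 789 lower. Block alternatives, chosen after seeing the data, gave in polyA 78 and 109 with 6 libraries and 1 higher without replicate 1. In rRNA-depleted libraries the block gave 1447 and 1491 with 6 libraries, 804 and 817 at 1 CPM, 115 and 245 after thinning, 1043 and 728 with DESeq2 size factors, 2144 and 361 with library size only, and 761 and 428, 562 and 418, and 68 and 128 without replicate 1, 2 and 3. The difference between library types had 1 call with DESeq2's Wald test and 1 with the replicate block. Log2 fold changes that reversed were those of CYP17A1 without a library (-0.4896 to 0.1345 in polyA, -0.5157 to 0.0999 in rRNA-depleted libraries), RPL35 in polyA without a library (-0.3078 to 0.0211), h2ax in polyA with the block without replicate 3 (0.0371), and RDH10 in polyA with library size only (0.0599, and 0.0605 with the block). With sums over library size in place of TMM, chosen after seeing the data, basement membrane sums in both library types no longer overlapped. Nor did polyA receptor and rRNA-depleted meiotic sums. PolyA cell cycle sums and proteasome sums in both types came to overlap. The rRNA-depleted ribosome biogenesis sums stayed apart but turned, from 7990 CPM at O2 and 8507 CPM at O1 to 7947 and 7850 CPM. Means turned for granulosa and early germ cell genes in both types and for theca genes in rRNA-depleted libraries. In polyA they turned for secretory, meiotic, nuclear-encoded oxidative phosphorylation, yolk uptake and gap junction genes. The cause was not tested. Genes of a few CPM rest on few reads per library.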
